A study of Homo sapiens with 6 samples.

Results

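The regions described here are all the peaks on human chromosome 19 in 3 deposited lists of chromatin immunoprecipitation sequencing (ChIP-seq) peaks, on genome build hg19. They were chosen by chromosome alone and number 1953 of 35687 peaks. Of the Calu3 BRD8 list 601 of 9769 peaks lie on chromosome 19, of the 16HBE14o- BRD8 list 409 of 9505, and of the Calu3 CTCF list 943 of 16413. Calu3 is a human lung adenocarcinoma line and 16HBE14o- a human bronchial epithelial line, both untreated and grown in DMEM with 10% FBS (fetal bovine serum). BRD8 was precipitated with 1 antibody (Active Motif 61007) in both lines, and CTCF with a Millipore antibody in Calu3. Each of the 3 experiments had 2 replicates, which the authors joined into 1 list by the irreproducible discovery rate (IDR). No value of a single replicate was used, so there is no replicate spread and no test is given. Shares are given with 95% Clopper-Pearson intervals, exact limits for counting error alone. The sequencing depth behind the lists is unknown.

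BRD8 carries a bromodomain and belongs to the NuA4/TIP60 complex, which acetylates histones and exchanges the histone variant H2A.Z at promoters and enhancers. CTCF binds DNA through a row of zinc fingers and marks insulators and the anchors of chromatin loops. Chromosome 19 is the most gene-dense human chromosome, and it carries large tandem clusters of zinc finger genes, many of which encode KRAB repressors of transposable elements. In many cell types the bodies of these genes are covered by H3K9me3, a mark of heterochromatin. In the RefSeq gene table for GRCh38, used here for names and gene order only, 1451 of 20037 protein-coding genes are on chromosome 19 (7.24%). By symbol, 265 of 566 zinc finger genes are on it (46.8%), and 213 of these 265 stand in 18 runs of at least 5 neighbouring zinc finger genes, the longest with 27. Per Mb of hg19 length, chromosome 19 ranks 1 of 23 chromosomes in protein-coding genes. No gene table of hg19 was used, so peaks are placed by coordinate and cytogenetic band and not by gene. The zinc finger clusters are those of the selection rule, 19800001 to 24500000 on the short arm and 52000001 to 59100000 on the long arm. These borders were not checked against an hg19 annotation, and the rest of the chromosome, 47.3 Mb, is known to hold smaller zinc finger clusters.

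Chromosome 19 was densely occupied by both proteins. Calu3 BRD8 had 10.2 peaks per Mb on chromosome 19, against 3.08 per Mb on the other chromosomes, a 3.30-fold higher density. For 16HBE14o- BRD8 the densities were 6.92 and 3.06 peaks per Mb, 2.26-fold higher on chromosome 19. For Calu3 CTCF they were 15.9 and 5.20 peaks per Mb, 3.07-fold higher. Among 23 chromosomes, chromosome 19 was the densest for Calu3 BRD8 and for CTCF, and ranked 2 for 16HBE14o- BRD8, after chromosome 20 with 10.5 peaks per Mb. It held 6.15% of the Calu3 BRD8 list, 4.30% of the 16HBE14o- BRD8 list and 5.75% of the CTCF list. Neighbouring summits were a median of 31.0 kb apart in Calu3 BRD8, 51.6 kb in 16HBE14o- BRD8 and 23.4 kb in CTCF, against 63.7, 88.9 and 53.4 kb in the same lists on the other chromosomes.

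**Figure D1:**
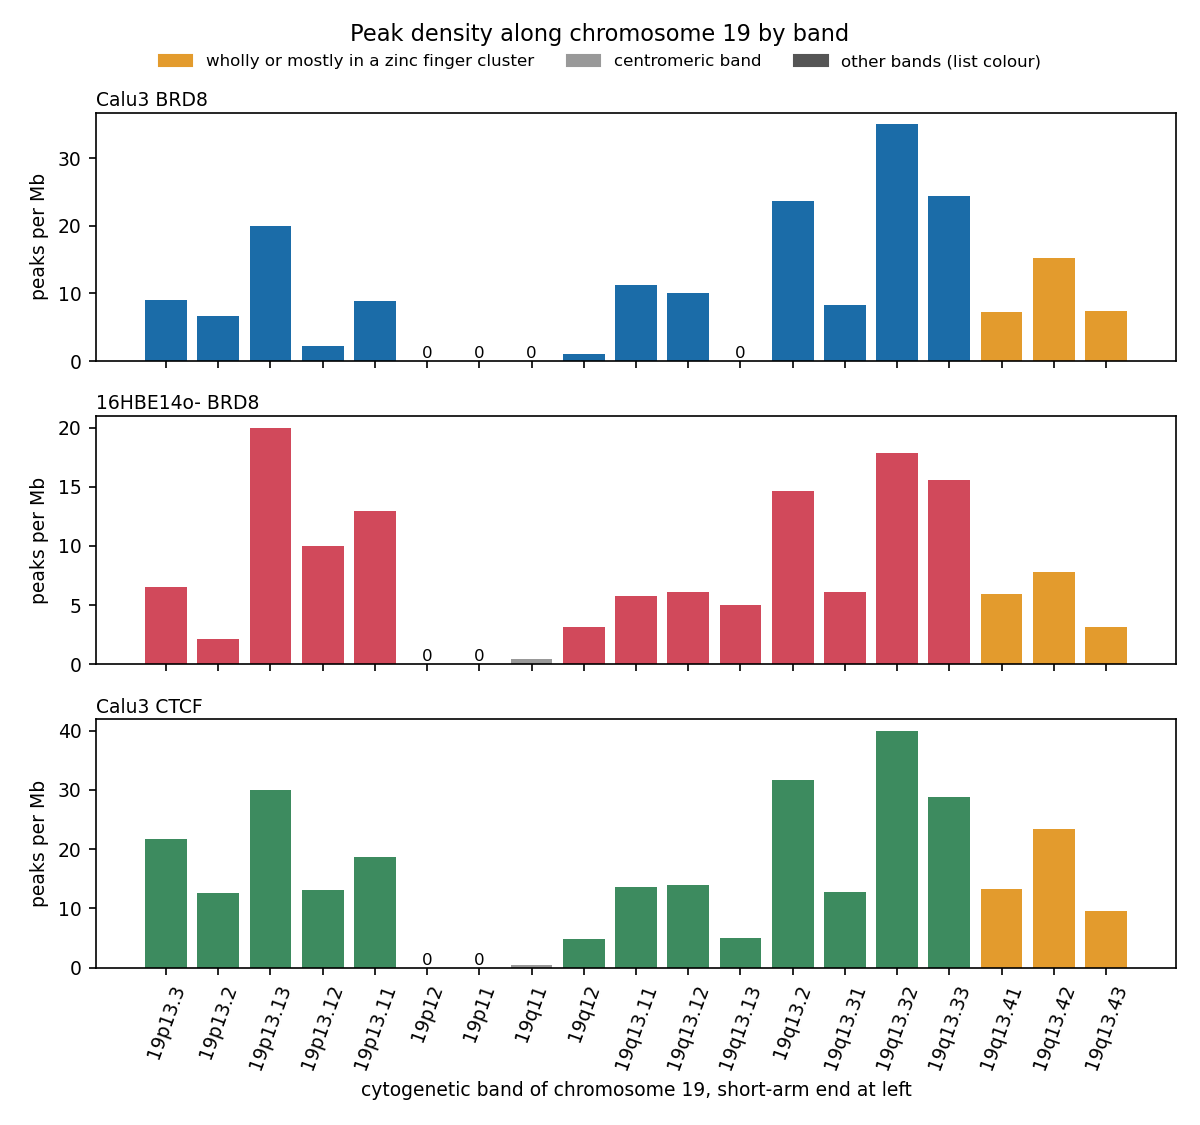
Peaks per Mb in each cytogenetic band of chromosome 19 for the 3 lists, each panel with its own scale. Bars are densities of 1 pooled list and have no error; band 19q13.32 is the fullest of the long arm in each list (35.0, 17.9 and 40 peaks per Mb) and 19p12, within the short-arm zinc finger cluster, is at 0 in each.

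The short-arm zinc finger cluster was empty in every list. It held 0 Calu3 BRD8, 0 16HBE14o- BRD8 and 0 CTCF peaks. The stretch without a summit in any list was longer than the cluster. It spanned 8.71 Mb, between the summit at 19754834, just before the cluster, and that at 28465067, near the long-arm edge of the centromeric bands. The centromeric bands 19p11 and 19q11 make up 4.2 Mb of the chromosome, and 4.65 Mb of the empty stretch lay outside them. The longest such stretch was longer on 5 other chromosomes, and outside centromeric bands on 10. Divided by the mean distance between peaks of its own chromosome, the empty 4.65 Mb came to 153 mean distances, rank 3 of 23 after chromosomes 1 and 9. Read filters are not given in the sources used here, and a region with no listed peak is not shown to lack BRD8 or CTCF.

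The long-arm zinc finger cluster was occupied, and unevenly. Its 7.1 Mb held 66 Calu3 BRD8 peaks, 33 16HBE14o- BRD8 peaks and 102 CTCF peaks. These are 9.30, 4.65 and 14.4 peaks per Mb, against 11.3, 7.94 and 17.8 per Mb in the rest of the chromosome. The density ratio of the long-arm cluster to the rest was thus 0.822 for Calu3 BRD8, 0.585 for 16HBE14o- BRD8 and 0.808 for CTCF. With the empty cluster included, the ratio of both clusters to the rest was 0.495, 0.352 and 0.486 for the same lists.

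Most of the long-arm cluster's peaks came from 54 to 57 Mb, stretches picked after the bins were seen. Those 3 Mb held 52 Calu3 BRD8, 24 16HBE14o- BRD8 and 71 CTCF peaks. The 2 Mb before them, 52 to 54 Mb, held 4, 4 and 15 peaks, and the last stretch, from 57 Mb to the cluster's end, 10, 5 and 16. The stretch from 54 to 57 Mb reached 17.3 Calu3 BRD8 peaks per Mb, more than the 11.3 per Mb of the rest of the chromosome, and 52 to 54 Mb reached 2. Band 19q13.42, where the leukocyte receptor genes of the LILR and KIR families are also found, held 41 Calu3 BRD8, 21 16HBE14o- BRD8 and 63 CTCF peaks. In the bins of 1 Mb, 53 to 54 Mb had 0, 1 and 6 peaks and 57 to 58 Mb had 1, 0 and 2. A similar bin lay outside both clusters: 37 to 38 Mb held 0 peaks of either BRD8 list and 3 CTCF peaks.

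**Figure D2:**
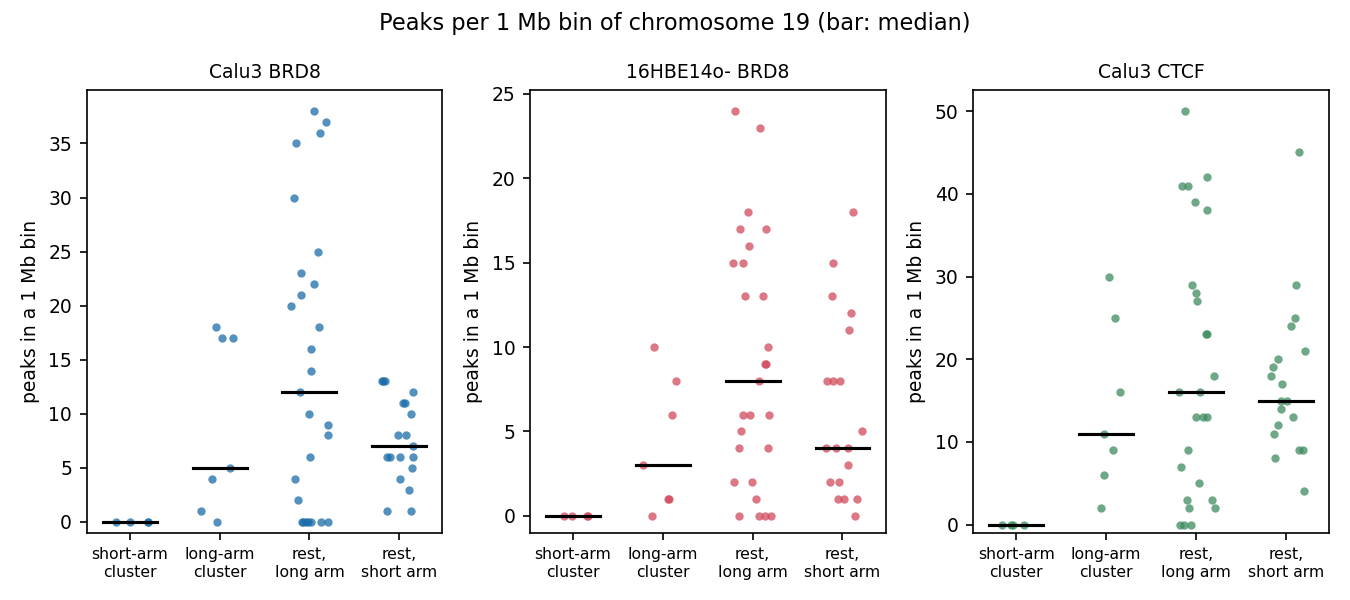
Peaks in each 1 Mb bin of chromosome 19, by list and part of the chromosome, with the median as a bar; bins that cross a cluster border are left out. All 4 bins wholly in the short-arm cluster are at 0, the 7 bins of the long-arm cluster have medians of 5 (Calu3 BRD8), 3 (16HBE14o- BRD8) and 11 (CTCF), and the long-arm rest, which includes empty centromeric bins, has medians of 12, 8 and 16.

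The stretch of the long arm between 39 and 52 Mb was the fullest. Its 13 Mb held 311 of the 601 Calu3 BRD8 peaks (51.7%), 189 of the 409 16HBE14o- BRD8 peaks (46.2%) and 389 of the 943 CTCF peaks (41.3%). The bin from 46 to 47 Mb had 38 Calu3 BRD8 peaks, the highest number of 3053 such bins in the genome. The bins at 49 to 50, 47 to 48, 42 to 43 and 45 to 46 Mb followed with 37, 36, 35 and 30, which rank 2, 4, 5 and 11 in the genome. The median bin of the genome had 1 Calu3 BRD8 peak. For 16HBE14o- BRD8 the fullest bins of chromosome 19 were 42 to 43 Mb with 24 peaks and 47 to 48 Mb with 23 (ranks 15 and 18 in the genome). Next came 18 to 19 and 45 to 46 Mb with 18 each and 41 to 42 Mb with 17. CTCF had 50 peaks at 42 to 43 Mb and 45 at 1 to 2 Mb (ranks 6 and 8), then 42 at 45 to 46 Mb and 41 each at 46 to 47 and 49 to 50 Mb. Of the 50 fullest bins of the genome, 9 were on chromosome 19 for Calu3 BRD8, 6 for 16HBE14o- BRD8 and 10 for CTCF, with bins tied at the same number counted by their shared rank. All 5 fullest Calu3 BRD8 bins were on the long arm, while 16HBE14o- BRD8 and CTCF each had 1 on the short arm.

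Numbers of peaks in a bin rose and fell together across the lists. Over the 60 bins, Pearson's r was 0.88 between Calu3 BRD8 and CTCF (Spearman's rho 0.91), 0.79 between 16HBE14o- BRD8 and CTCF (rho 0.80) and 0.79 between the BRD8 lists (rho 0.81). Over the 46 bins outside the clusters r was 0.87, 0.77 and 0.78 in the same order. Bins share gene content and sequence composition, neighbouring bins are not independent, and the Calu3 lists share a cell line, so these values are a description.

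The BRD8 lists differed in where on chromosome 19 their peaks lay. Chromosome 19 as a whole held 1.47 times as many Calu3 as 16HBE14o- BRD8 peaks, while the other chromosomes held 1.01 times as many. In the clusters the ratio was 2, from 66 Calu3 and 33 16HBE14o- peaks, and in the rest 1.42. Overlapping peaks within the Calu3 list raised its numbers both on chromosome 19 and on the others. With such peaks merged, the ratios fell to 1.21 on chromosome 19, 1.55 in the clusters and 1.18 in the rest. The other chromosomes then held fewer Calu3 than 16HBE14o- regions, 7688 against 9095, so chromosome 19 still stood apart from them. Within chromosome 19 the order turned from 14 to 16 Mb, with 2 Calu3 and 21 16HBE14o- peaks. Among bins where the BRD8 lists together had 10 peaks or more, those furthest towards 16HBE14o- were 14 to 15 Mb with 1 Calu3 and 13 16HBE14o- peaks, 19 to 20 Mb with 5 and 13, and 5 to 6 Mb with 6 and 11. Those furthest towards Calu3 were 0 to 1 Mb and 12 to 13 Mb, each with 8 Calu3 and 2 16HBE14o- peaks, and 2 to 3 Mb with 11 and 3. All 6 lay on the short arm, so both directions occurred within it.

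**Figure D3:**
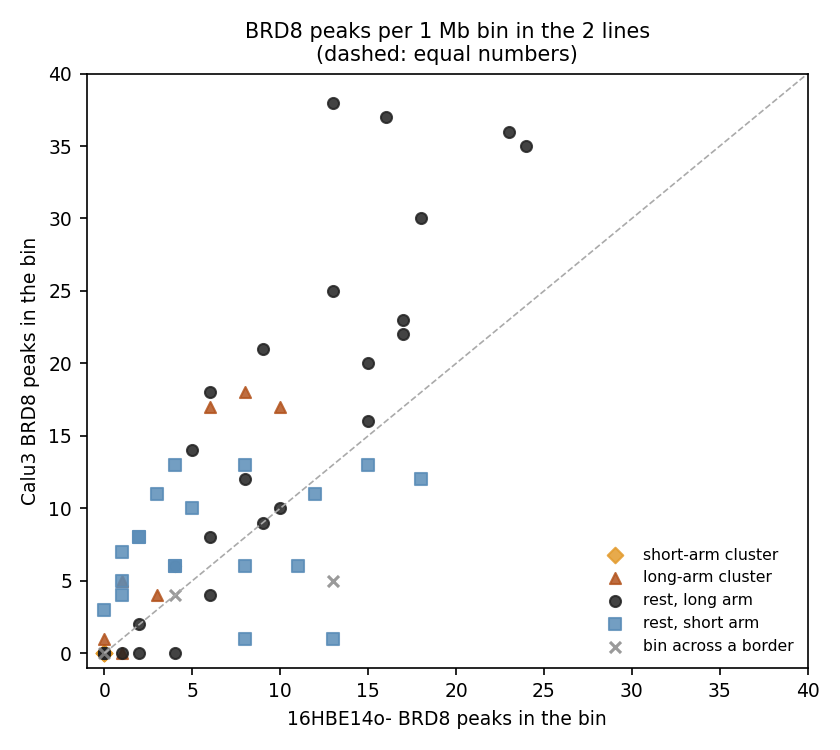
Calu3 BRD8 peaks (vertical axis) against 16HBE14o- BRD8 peaks (horizontal axis) in each 1 Mb bin of chromosome 19, with the dashed line at equal numbers. Long-arm bins reach 38 Calu3 and 24 16HBE14o- peaks and mostly lie above the line, and short-arm bins lie on both sides of it, down to 1 Calu3 against 13 16HBE14o- peaks.

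Bands also differed in both directions, and did so on both arms. In 19p13.12 there were 5 Calu3 and 23 16HBE14o- BRD8 peaks, in 19q12 4 and 12, and in 19p13.11 33 and 48. In 19p13.2 there were 47 and 15, in 19q13.43 21 and 9, and in 19q13.32 98 and 50. CTCF, mapped in Calu3, was listed in the bands poor in Calu3 BRD8: 19p13.12 had 30 CTCF peaks, of which 18 met a 16HBE14o- BRD8 peak and 3 a Calu3 BRD8 peak.

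The ranks of sites called in both lines varied along the chromosome, and are given for stretches picked after the values were seen. Within-list percentiles are used, where 100 is the strongest peak of a whole list, because signals of different lists may not share a scale. Each overlap is 1 pair, so a 16HBE14o- peak met by more than 1 Calu3 peak counts more than once, and pairs are not separate sites. The 296 pairs of chromosome 19 involve 240 16HBE14o- peaks. From 14 to 20 Mb there were 26 Calu3 peaks with a 16HBE14o- partner and 20 16HBE14o- peaks with a Calu3 partner. Of the 26 pairs, 8 ranked higher in Calu3. Their median percentile was 33.8 in Calu3 and 70.1 in 16HBE14o-. From 39 to 52 Mb 99 of 164 pairs ranked higher in Calu3, with median percentiles of 70.6 in Calu3 and 64.1 in 16HBE14o-. Ranks did not follow peak numbers throughout. From 33 to 36 Mb, with 51 Calu3 and 23 16HBE14o- peaks, 13 of 27 pairs ranked higher in Calu3. From 0 to 14 Mb, with 1.79 times as many Calu3 as 16HBE14o- peaks, the measures differed. There 21 of 37 pairs ranked higher in Calu3, with a median difference within pairs, Calu3 minus 16HBE14o-, of 1.71 percentile points. The median percentile of the same pairs was 58.0 in Calu3 and 64.9 in 16HBE14o-. From 50 to 52 Mb, with 36 and 30 peaks, 10 of 24 pairs ranked higher in Calu3, and from 57 Mb to the cluster's end, with 10 and 5 peaks, 0 of 4. Over chromosome 19 it was 166 of 296 pairs, against 2227 of 4616 on the other chromosomes.

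Sharing between the lines was counted as an overlap of at least 1 bp. Of the 601 Calu3 BRD8 peaks, 296 met a 16HBE14o- peak, or 49.3% (45.2 to 53.3%), close to the 50.1% of that whole list. Of the 409 16HBE14o- BRD8 peaks, 240 met a Calu3 peak, or 58.7% (53.7 to 63.5%), against 43.4% of that whole list and 42.7% (41.7 to 43.8%) on the other chromosomes. That share ranked 2 of 23 chromosomes. It was above that of the other chromosomes in each quartile of the list by signal, with 70.8% against 64.2% in the strongest quartile and 44.2% against 24.6% in the weakest. In the strongest quartile the intervals overlapped (61.5 to 79.0% and 62.2 to 66.2%), and in the other quartiles they did not. Widths bear on these shares: with an overlap of 50% of both peaks required, 4.66% of Calu3 and 6.85% of 16HBE14o- BRD8 peaks counted as shared, since Calu3 BRD8 peaks are usually 476 bp wide and those of 16HBE14o- 224 bp.

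Most BRD8 peaks of chromosome 19 lay at listed Calu3 CTCF peaks. In Calu3 454 of 601 BRD8 peaks did so, or 75.5% (71.9 to 78.9%), against 70.5% of the whole list. In 16HBE14o- it was 324 of 409, or 79.2% (74.96 to 83.0%), against 65.3% of the whole list and 64.6% (63.7 to 65.6%) on the other chromosomes. From the side of CTCF, 379 of 943 peaks met Calu3 BRD8, or 40.2% (37.04 to 43.4%), against 36.1% of the whole list. CTCF met 16HBE14o- BRD8 at 326 peaks, or 34.6% (31.5 to 37.7%), against 38% of the whole list. Among 23 chromosomes the 16HBE14o- share at CTCF ranked 2, the Calu3 share at CTCF 6, and the CTCF share at 16HBE14o- BRD8 15. BRD8 peaks at CTCF were shared between the lines more often than those without it. In Calu3 the shares were 57.7% (53.0 to 62.3%) of 454 and 23.1% (16.6 to 30.8%) of 147, and in 16HBE14o- 65.1% (59.7 to 70.3%) of 324 and 34.1% (24.2 to 45.2%) of 85. The whole lists gave 61.5% and 22.7% in Calu3 and 57.1% and 17.7% in 16HBE14o-, so the same order held over all chromosomes. Peaks at CTCF were also the stronger ones, at median percentiles of 59.8 against 35.3 in Calu3 and 59.4 against 34.7 in 16HBE14o-, as in the whole lists (58.7 against 33.3 and 60.5 against 31.5), and the part of strength in this was not tested. With the 50% requirement, 36.8% of Calu3 BRD8 peaks met CTCF and 23.1% of CTCF peaks met Calu3 BRD8.

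**Figure D4:**
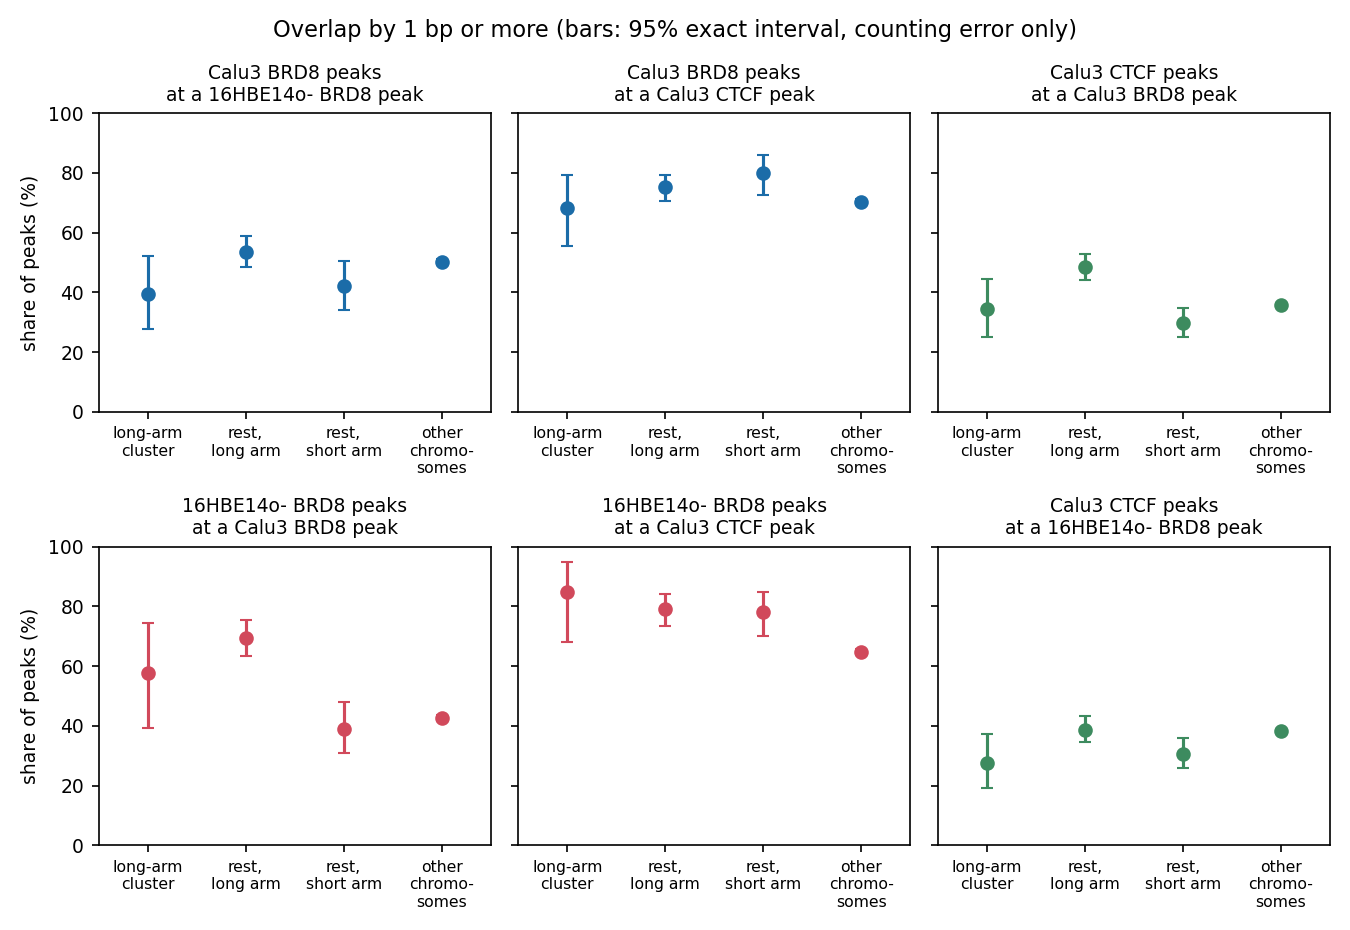
Share of peaks of one list that overlap a peak of another, in 4 parts of the genome, with 95% exact intervals. For 16HBE14o- BRD8 peaks at Calu3 BRD8, the long-arm rest of chromosome 19 is at 69.5%, the short-arm rest at 39.1% and the other chromosomes at 42.7%.

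Within the zinc finger clusters few peaks stood behind the overlaps, and the intervals of their shares overlapped those of the rest. All cluster peaks came from the long-arm cluster. Of 66 Calu3 BRD8 peaks there 26 were shared, or 39.4% (27.6 to 52.2%), against 270 of 535 in the rest, or 50.5% (46.1 to 54.8%). Of 33 16HBE14o- BRD8 peaks 19 were shared, or 57.6% (39.2 to 74.5%), against 221 of 376, or 58.8% (53.6 to 63.8%). CTCF was met by 45 of the 66 Calu3 BRD8 peaks, or 68.2% (55.6 to 79.1%), against 76.4% (72.6 to 80.0%) in the rest. It was met by 28 of the 33 16HBE14o- BRD8 peaks, or 84.8% (68.1 to 94.9%), against 78.7% (74.2 to 82.8%). Of 102 CTCF peaks in the cluster, 35 met Calu3 BRD8 (34.3%, 25.2 to 44.4%), against 40.9% (37.6 to 44.3%) in the rest, and 28 met 16HBE14o- BRD8 (27.5%, 19.1 to 37.2%), against 35.4% (32.2 to 38.8%). The differences, cluster minus rest, ran from -11.1 to 6.13 percentage points. In each of these 6 pairs the intervals overlapped, which is not a test of a difference, and none was made. In the upper 50% of each list the differences, cluster minus rest, were 18.9 percentage points for 16HBE14o- at Calu3 BRD8, 7.33 for CTCF at Calu3 BRD8 and 1.35 for Calu3 BRD8 at CTCF, the opposite sign to the -1.20, -6.59 and -8.27 of the whole lists.

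The rest was also divided by arm, a division made after the values were seen, and the shares at Calu3 BRD8 were higher on the long arm. Outside the clusters, 169 of 243 16HBE14o- BRD8 peaks of the long arm met Calu3 BRD8, or 69.5% (63.3 to 75.3%), against 52 of 133 on the short arm, or 39.1% (30.8 to 47.9%). For Calu3 BRD8 peaks at 16HBE14o- BRD8 the shares were 53.6% (48.5 to 58.7%) of 386 and 42.3% (34.2 to 50.6%) of 149. The share at CTCF had overlapping intervals on the arms, at 79.0% (73.3 to 83.96%) and 78.2% (70.2 to 84.9%) for 16HBE14o-, and at 75.1% (70.5 to 79.4%) and 79.9% (72.5 to 85.98%) for Calu3. CTCF peaks met Calu3 BRD8 at 243 of 501 sites on the long arm, or 48.5% (44.0 to 53.0%), against 101 of 340 on the short arm, or 29.7% (24.9 to 34.9%). They met 16HBE14o- BRD8 at 38.7% (34.4 to 43.1%) and 30.6% (25.7 to 35.8%), with intervals that just overlapped. The long minus short arm difference of 30.4 points for 16HBE14o- at Calu3 BRD8 was 46.3 in the upper 50% of each list and 7.21 with the 50% overlap. That of 18.8 points for CTCF at Calu3 BRD8 was 33.1 in the upper 50%. The ratio of Calu3 BRD8 peaks to CTCF peaks was 0.770 on the long arm and 0.438 on the short arm.

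The short arm had the stronger CTCF peaks. Their median percentile was 50.6 on the long arm and 71.9 on the short arm, against 49.5 on the other chromosomes. Calu3 BRD8 ranked the other way, with medians of 57.6 and 47.1, and 16HBE14o- BRD8 had 52.2 and 54.5. Among CTCF peaks in the strongest quartile of the list, 109 of 140 met Calu3 BRD8 on the long arm (77.9%), against 71 of 149 on the short arm (47.7%) and 58.2% on the other chromosomes. In the next quartile it was 68 of 117 (58.1%), against 13 of 92 (14.1%) and 39.97%. For 16HBE14o- BRD8 the strongest quartile gave 72.9% on the long arm, against 43.6% on the short arm and 68.6% on the other chromosomes, and the next quartile 45.3%, against 25% and 39.6%. In the weakest quartile the arms stood at 17.6% and 14.6% for Calu3 BRD8. For 16HBE14o- BRD8 the arms were close to each other in the weaker quartiles. The weakest quartile gave 10.4% on both arms, against 15.8% on the other chromosomes. The quartile above it gave 21.8% on the long arm and 21.6% on the short arm, against 29.7%. The short arm was not uniform for 16HBE14o-: over all quartiles, 59.5% of its CTCF peaks at 4 to 7 Mb and 54.5% at 14 to 20 Mb met 16HBE14o- BRD8, against 11.1% at 0 to 4 Mb and 14.3% at 7 to 14 Mb.

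**Figure D5:**
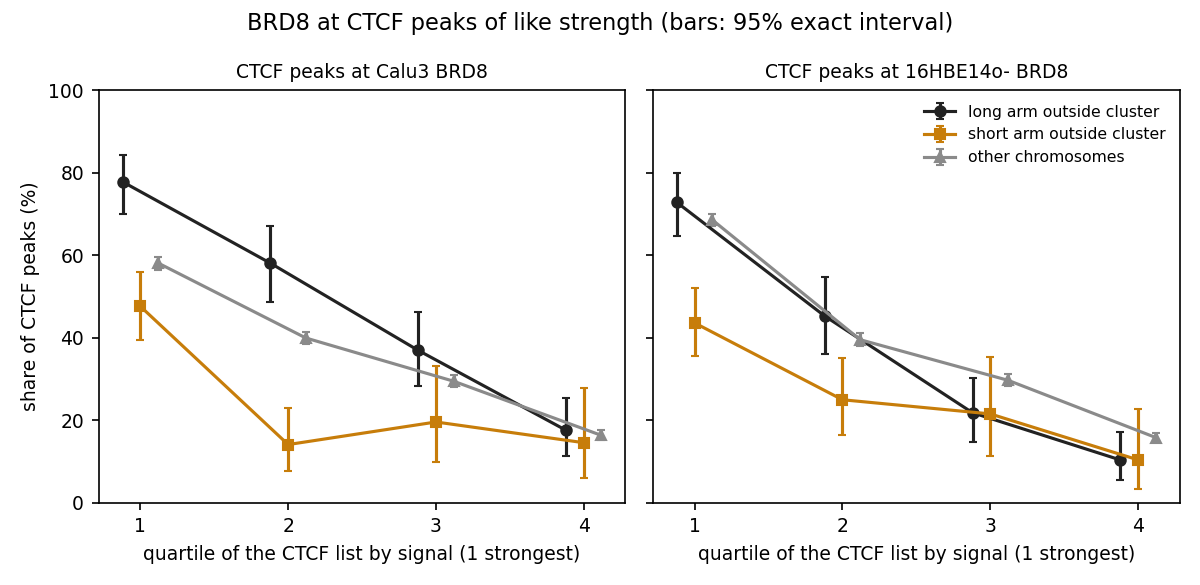
Share of CTCF peaks that meet a BRD8 peak of Calu3 (left) or 16HBE14o- (right), by quartile of the whole CTCF list, with 95% exact intervals; the long arm and short arm are those of chromosome 19. In the strongest quartile the long arm stands at 77.9% and 72.9% and the short arm at 47.7% and 43.6%.

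Cluster peaks had lower median ranks than those of the rest. The median percentile was 45.1 in the clusters and 53.5 in the rest for Calu3 BRD8, 40.4 and 53.5 for 16HBE14o- BRD8, and 45.04 and 60.9 for CTCF. The quartiles were wide, 18.6 to 70.6 for Calu3 BRD8 in the clusters and 25.5 to 77.1 in the rest, so the parts overlapped widely. For 16HBE14o- BRD8 they were 15.9 to 77.4 in the clusters and 29.3 to 76.6 in the rest, and 33.3% of its cluster peaks fell in the strongest quartile of the list, against 26.3% on the long arm and 28.6% on the short arm of the rest. Of the 102 CTCF peaks of the cluster 22 fell in the weakest decile of the list and 10 in the strongest. Of all 943 CTCF peaks of chromosome 19 it was 100 and 113. Chromosome 19 as a whole had median percentiles of 52.4, 52.9 and 59.14 in the 3 lists. It supplied 71 of the 976 peaks in the strongest Calu3 BRD8 decile (7.27%) and 113 of the 1641 in the strongest CTCF decile (6.89%).

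By class, 213 of the 943 CTCF peaks (22.6%) met BRD8 of both lines, 166 (17.6%) met that of Calu3 but not of 16HBE14o-, 113 (11.98%) met that of 16HBE14o- but not of Calu3, and 451 (47.8%) met no BRD8 peak. On the other chromosomes the shares were 21.7%, 14.1%, 16.5% and 47.7%. The median CTCF percentile of these classes on chromosome 19 was 84.7, 60.1, 69.0 and 37.5. Joined over all lists, the peaks of chromosome 19 formed 1098 regions. All 3 lists met in 214 of them (19.5%, 17.2 to 21.96%), against 16.6% on the other chromosomes. CTCF stood alone in 433 (39.4%, against 35.6% on the other chromosomes) and Calu3 BRD8 alone in 100 (9.11%, against 8.68%). 16HBE14o- BRD8 stood alone in 56 (5.10%, 3.88 to 6.57%, against 13.3%). BRD8 of both lines without CTCF was found in 26 regions (2.37%, against 2.68%), of which 1 was in the long-arm cluster.

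Where BRD8 and CTCF peaks overlapped, which itself limits the distance, many summits lay close together. They were within 50 bp at 258 of 454 Calu3 peaks (56.8%) and 287 of 324 16HBE14o- peaks (88.6%). On the other chromosomes it was 60.8% and 89.3%. The median distance in Calu3 was 40.5 bp over 454 peaks (quartiles 17 and 99.8 bp), against 37 bp on the other chromosomes. For 16HBE14o- BRD8 it was 18 bp over 324 peaks (quartiles 8 and 34 bp), against 19 bp. The usual peak is 476 bp wide in the Calu3 list and 224 bp in the 16HBE14o- list, so these 2 distances do not compare the lines. Overlapping Calu3 BRD8 peaks formed 496 separate regions on chromosome 19, of which 103 held more than 1 peak (20.8%), against 18.7% on the other chromosomes. In the long-arm cluster it was 15 of 51. The 16HBE14o- list had 0 such regions on chromosome 19 and 1 of 9095 on the other chromosomes.

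The strongest sites of chromosome 19 were held by both proteins. In 19q13.11 a Calu3 BRD8 peak (chromosome 19, 34268913 to 34269382) had signal 286.3 and rank 9 in its list. It met the 16HBE14o- peak of rank 36 and the CTCF peak of rank 9, the strongest CTCF peak of the chromosome, with summits 23 and 4 bp away. In 19q13.2 a site at 41140293 to 41140795 ranked 15 in Calu3 BRD8, 19 in 16HBE14o- BRD8 and 21 in CTCF. It was the first of chromosome 19 in the 16HBE14o- list, and its 2 BRD8 summits lay 1 bp apart. The next best summed rank outside the clusters was that of a site in 19q13.32 at 46386510 to 46386915, which ranked 90 in Calu3 BRD8, 126 in 16HBE14o- BRD8 and 255 in CTCF.

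Rank in one list did not fix rank in the others. At 42612586 to 42613085 in 19q13.2, Calu3 BRD8 ranked 13, 16HBE14o- BRD8 831 and CTCF 4940. At 42210610 to 42211092 Calu3 BRD8 ranked 33, 16HBE14o- BRD8 8404 and CTCF 1472. The 16HBE14o- peak at 4400555 to 4400778 in 19p13.3 ranked 69, against 1186 for the Calu3 BRD8 peak it met and 738 for CTCF. That at 46898851 to 46899074 in 19q13.32 ranked 117, against 65 in Calu3 BRD8 and 5398 in CTCF. The CTCF peak of rank 55, at 38893599 to 38893891 in 19q13.2, met BRD8 peaks of rank 548 in Calu3 and 1039 in 16HBE14o-.

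The long-arm zinc finger cluster held 1 of the 5 strongest peaks of each BRD8 list on the chromosome and 2 of the 5 strongest CTCF peaks. At 56164910 to 56165404 in 19q13.42 Calu3 BRD8 ranked 11 in its list and second on the chromosome, with 16HBE14o- BRD8 at rank 107 and CTCF at 172. All 3 summits lay within 4 bp. The next cluster peaks of Calu3 BRD8 were at 54296326 to 54296502 (rank 249, with 16HBE14o- 885 and CTCF 5617) and 55677367 to 55677842 (rank 396, with 16HBE14o- 7458 and CTCF 2758). The site at 54296326 also gave the 16HBE14o- peak of rank 3 in the cluster. The leading CTCF peaks of the cluster were at 55979204 to 55979445 (rank 78), 55671977 to 55672236 (rank 87) and 58666471 to 58666735 (rank 163). Each of these 3 met BRD8 in both lines at ranks between 1496 and 3277. After the leading site, the cluster's best ranks over all lists were at 56028221 to 56028696 (716, 2564 and 289) and 56015329 to 56015804 (1011, 2372 and 483), both in 19q13.42.

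Most strong BRD8 peaks lay at CTCF, 91.3% of the strongest quartile on chromosome 19 in Calu3 and 94.7% in 16HBE14o-. On the other chromosomes it was 89.7% and 85.9%. Peaks of 1 line lay at CTCF less often than shared ones. On chromosome 19, 262 of 296 shared Calu3 peaks met CTCF, against 454 of all 601. In 16HBE14o- it was 211 of 240 shared peaks, against 324 of all 409. The 5 peaks per line named next were picked by rank and do not stand for all peaks of 1 line. The 5 strongest Calu3 BRD8 peaks with no 16HBE14o- peak within 1 kb began at 48216515 (rank 333), 35626228 (520), 39888267 (599), 10691787 (662) and 42688457 (680), and all 5 met CTCF. Those of 16HBE14o- began at 18272162 (rank 225), 47141874 (261), 14682842 (420), 10982018 (460) and 921725 (526), and all 5 met CTCF, at CTCF ranks 1100, 121, 7232, 154 and 395. Of these 5, 4 lay on the short arm, and of the Calu3 peaks 1. By overlap, the short arm outside its cluster held 81 of the 169 16HBE14o- peaks that met no Calu3 peak. It held 86 of the 305 Calu3 peaks that met no 16HBE14o- peak. Of all chromosome 19 peaks it held 32.5% in 16HBE14o- and 24.8% in Calu3. The site at 14682842, in 19p13.12, was 497 kb from the nearest Calu3 BRD8 summit, against 15.3 kb from its nearest neighbour in its own list.

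The strongest BRD8 peaks without CTCF in Calu3 lay in 19q13.33 at 50440832 to 50441307 (rank 620, met by a 16HBE14o- peak of rank 2726) and at 49947070 to 49947189 (rank 719, met by a 16HBE14o- peak of rank 4744 and 0.247 kb from a CTCF summit), and in 19q13.42 at 54527043 to 54527518 (rank 735, with no 16HBE14o- peak). CTCF was not mapped in 16HBE14o-, so the BRD8 peaks of that line were set beside Calu3 CTCF. The strongest 16HBE14o- peak without Calu3 CTCF lay within the long-arm cluster, in 19q13.43 at 59092599 to 59092822 (rank 734). It was 8.16 kb from the nearest Calu3 BRD8 summit and 61.7 kb from the nearest CTCF summit. The next were at 17403665 to 17403888 in 19p13.11 (rank 950) and 42538988 to 42539211 in 19q13.2 (rank 1967), and both met Calu3 BRD8.

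At the cluster borders the nearest peaks lay as follows. Before the short-arm cluster the last Calu3 BRD8 summit was at 19601359, and the last 16HBE14o- BRD8 and CTCF summits, at 19754834 and 19754823, belonged to 1 site. On the far side of the empty stretch, still within the centromeric band 19q11, the first 16HBE14o- BRD8 and CTCF summits, at 28465067 and 28465079, again belonged to 1 site, with the CTCF peak near the weak end of its list (rank 15540). No Calu3 BRD8 peak was listed there, and the largest spacing between neighbouring Calu3 BRD8 summits was 10500 kb. At the start of the long-arm cluster a BRD8 site shared by the lines lay just outside it, with summits at 51976508 in Calu3 and 51976395 in 16HBE14o-, and a CTCF peak without BRD8 lay just inside, with its summit at 52018343. Nearest to its end were the Calu3 BRD8 summit at 59084556, the 16HBE14o- BRD8 summit at 59092711 and the CTCF summit at 59031037, all inside the cluster. That CTCF peak had rank 242 and met BRD8 in both lines.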

How the data were processed

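Each of the 3 ChIP-seq experiments had 2 replicates, which the authors joined by IDR into 1 list, per the series' design text. The deposited lists are narrowPeak files on hg19, per the file headers. The CTCF header names the optimal IDR set, and the BRD8 headers do not say which set was taken. Their signal column holds the authors' peak signal, used only to rank peaks within a list. A further deposited column gives the summit's distance from the peak's start. Not given in the sources used here are the aligner, peak caller, control library and thresholds of the IDR step. Depth is unknown.

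A peak was assigned to a bin, band or cluster by its summit. Peaks of 2 lists that shared 1 bp or more counted as overlapping, computed in Python 3.11.15 (numpy 2.4.6, pandas 2.3.3, scipy 1.17.1), and bedtools 2.31.1 gave the same counts. The code for overlaps was first tested on simulated data. Chromosome lengths came from GenomeInfoDb 1.38.1 and bands from circlize 0.4.16, and figures from matplotlib 3.10.9. Gene numbers came from RefSeq on GRCh38. Peaks are not replicates, and no test was made. No sequences are shown, since no hg19 genome was used.

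The members, clusters and comparisons were chosen with earlier results of these data known. Sites were named by rule: the 5 strongest peaks of each list, the 3 strongest per cluster, the 5 strongest of 1 line, the 3 strongest without CTCF, the 3 best summed ranks per part, the 5 fullest bins, the 3 bins or bands furthest apart between the lines with at least 10 BRD8 peaks, and the peaks nearest to cluster borders. Other stretches and the division by arm were picked after the values were seen. Alternatives tried were merging of overlapping peaks, peaks of 200 bp, a 50% reciprocal overlap, a summit distance of at most 100 bp, keeping the upper 50% of peaks, lists of equal length (9505 peaks), shifted bins, whole-bin borders and lengths without centromeric bands.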

Additional observations from a re-analysis of the deposited data

How the results depend on the processing

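Of 134 values recomputed for 33 results, 105 stayed within the interval or spread of the value reported and 29 did not. The long minus short arm differences, recomputed for the 4 shares other than those of BRD8 at CTCF, kept their sign in all 24 values, and the cluster minus rest differences, whose intervals overlapped, changed sign in 5 of 42. With a 50% reciprocal overlap, 4.66% of Calu3 BRD8 peaks met 16HBE14o- BRD8, 6.85% of 16HBE14o- peaks met Calu3 BRD8, 36.8% of Calu3 and 74.8% of 16HBE14o- BRD8 peaks met CTCF, and 23.1% of CTCF peaks met Calu3 BRD8. The low shares between the lines follow from the widths, 476 bp and 224 bp. The long minus short arm difference for 16HBE14o- peaks at Calu3 BRD8 was then 7.21 percentage points, against 30.4. With summits within 100 bp, the shares were 37.9% for Calu3 BRD8 at 16HBE14o-, 56.7% for Calu3 BRD8 at CTCF and 36.1% for CTCF at Calu3 BRD8. With peaks of 200 bp they were 43.4% for Calu3 BRD8 at 16HBE14o- and 66.6% at CTCF. In the upper 50% of each list they were 40.6% for Calu3 BRD8 at 16HBE14o-, 67.7% for Calu3 BRD8 at CTCF and 36.8% for CTCF at Calu3 BRD8. There the arm differences were 46.3 points for 16HBE14o- at Calu3 BRD8, 33.1 for CTCF at Calu3 BRD8 and 17.6 for CTCF at 16HBE14o-. The cluster minus rest difference there was 18.9 points for 16HBE14o- at Calu3 BRD8, against -1.20, 7.33 for CTCF at Calu3 BRD8, against -6.59, and 1.35 for Calu3 BRD8 at CTCF, against -8.27. Chromosome 19 then held 6.63% of the CTCF list, and the CTCF density ratio of clusters to rest was 0.370. With lists of equal length, 63.1% of Calu3 and 67.5% of 16HBE14o- BRD8 peaks met CTCF, 50.9% and 46.4% of CTCF peaks met Calu3 and 16HBE14o- BRD8, and the arm differences for CTCF were 32.8 and 20.7 points. With overlapping peaks merged, the ratio of Calu3 to 16HBE14o- BRD8 peaks was 1.21 on chromosome 19, 1.55 in the clusters and 1.18 outside them. Unless a construction is named, the cause was not tested. No paired analysis was possible because each list pools its replicates, so leaving out a replicate was not possible either. Peaks near gene starts and motifs were not run. Intervals cover counting error only, and depth is unknown.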
